A study of Rattus norvegicus with 3 samples.

Results

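Chondroitin sulfate proteoglycans and the proteins that tie them into perineuronal nets were followed as 10 named genes: the lecticans BCAN, NCAN, VCAN and ACAN, the membrane proteoglycans CSPG4 and PTPRZ1, the tenascins TNR and TNC, and the link proteins HAPLN1 and HAPLN2. The members were chosen by name, and the authors' table of 12758 genes lists 8 of the 10. ACAN (aggrecan) and HAPLN1 are not listed, under these symbols or under a synonym of the rat reference. BCAN is listed 2 times, so the 8 genes take up 9 of the 12771 rows. The RNA came from female Sprague Dawley rats, 3 months old, of which the SCI group received a cord contusion through a laminectomy at T9 and the No-SCI group the laminectomy without the contusion. At 24 h a piece of cord some 2 mm long was taken at T8, rostral to the contusion, and digested with a cold active protease at 6°C, the cells were pelleted, and the supernatant, taken as enriched for axonal RNA, was sequenced in bulk. The labels give 2 No-SCI libraries and 1 SCI library, while the methods speak of 2 animals per condition. Values are in FPKM, which divides a gene's fragments by its length and by a scale for the library, here with upper quartile normalization by the authors. The file holds 1 value per gene and group, and no value for a single animal. No spread, interval or test between animals could therefore be computed, and every difference below is a description of 2 group values. The number of fragments behind each value is not given in the table, so no counting error could be computed either. A difference was called when it reached 2-fold, a log2 ratio of SCI over No-SCI of 1 in size.

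Lecticans carry chondroitin sulfate chains and bind hyaluronan at one end and tenascins at the other, and link proteins hold the bond to hyaluronan together. Together these molecules make the net that wraps many neurons and the matrix of the node of Ranvier, the gap in myelin where the axon membrane is exposed. Astrocytes and cells of the oligodendrocyte lineage make most of this matrix. After cord injury, chondroitin sulfate proteoglycans of the scar are known to hold back growing axons. In bulk RNA, fewer cells of a type and less RNA per cell cannot be told apart, and in a supernatant the share of each cell that escapes pelleting adds to both.

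Of the 8 listed members, 7 had a lower value after SCI and 1, HAPLN2, a higher one, where 56.4% of all genes had a lower value; after the median of all genes was centred at 0, 5 members were lower and 3 higher. BCAN, NCAN and PTPRZ1 were at least 2-fold lower, which is 3 of 8 where 12.1% of all genes were, and no member was at least 2-fold higher, where 7.93% of all genes were. After that centring the shares of all genes past 2-fold were 9.59% and 9.53%, and the members past 2-fold were the same 3. With 8 genes, a count of this size is a description of the members alone. The median log2 ratio of the members was −0.51 and that of all genes −0.12. The log2 ratio ran from −1.82 for PTPRZ1 to 0.77 for HAPLN2. BCAN made up 69.8% of the summed FPKM of the members in No-SCI and 46.7% after SCI. The sum over the members went from 304 to 176 FPKM, whereas the sum without BCAN was 91.9 FPKM in No-SCI against 93.6 FPKM in SCI. That near balance holds the higher value of HAPLN2, and without BCAN and HAPLN2 the sum over the other 6 members was 55.3 FPKM in No-SCI against 31.2 FPKM in SCI.

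**Figure D1:**
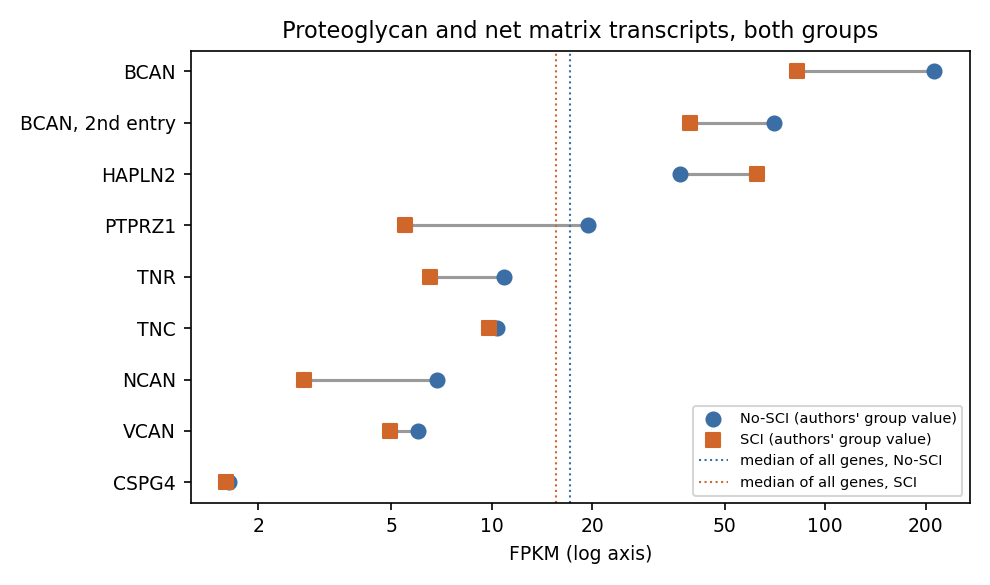
FPKM of each listed member on a log axis, with circles for the No-SCI value, squares for the SCI value and dotted lines at the median of all genes in each group; each point is 1 group value of the authors, without an error bar. BCAN leads in both groups, and HAPLN2 is the member whose square lies to the right of its circle, with 62.5 FPKM after SCI.

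The upstream sequences of BCAN, NCAN and HAPLN2 are shown because the first 2 had the lowest log2 ratios of the listed lecticans while HAPLN2, the gene that directly neighbours BCAN, had a higher one. They are the 250 bases before the RefSeq gene start in the GRCr8 rat assembly, 5′ to 3′ on the gene's strand. They lie at chr2:175765315-175765564 (minus strand) for BCAN, chr16:19335657-19335906 (plus strand) for NCAN and chr2:175794439-175794688 (minus strand) for HAPLN2. The FPKM values were made on the rn6 assembly, so these positions belong to the sequences and not to the measurements. Capitals mark matches, on either strand, to the GC box GGGCGG, the TATA box TATAAA, the CCAAT box CCAAT and the SOX core AACAAT.
BCAN: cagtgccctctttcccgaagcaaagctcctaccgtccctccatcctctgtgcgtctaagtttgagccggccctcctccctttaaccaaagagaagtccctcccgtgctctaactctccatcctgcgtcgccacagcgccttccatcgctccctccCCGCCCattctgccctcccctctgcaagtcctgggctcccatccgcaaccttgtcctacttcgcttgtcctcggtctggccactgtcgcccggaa
NCAN: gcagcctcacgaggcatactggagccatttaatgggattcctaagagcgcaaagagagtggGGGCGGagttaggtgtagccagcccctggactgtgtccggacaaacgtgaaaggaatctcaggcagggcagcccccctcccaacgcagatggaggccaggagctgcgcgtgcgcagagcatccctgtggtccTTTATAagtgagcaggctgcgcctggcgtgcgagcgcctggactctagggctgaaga
HAPLN2: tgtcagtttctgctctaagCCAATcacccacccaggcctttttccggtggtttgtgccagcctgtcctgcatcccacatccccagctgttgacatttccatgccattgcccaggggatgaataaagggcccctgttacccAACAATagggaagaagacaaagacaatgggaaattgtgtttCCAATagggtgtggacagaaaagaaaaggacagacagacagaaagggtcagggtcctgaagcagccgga

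The BCAN window held 1 GC box match and none of the other 3 motifs, and the NCAN window held 1 GC box and 1 TATA box match. The HAPLN2 window held 2 CCAAT matches and 1 SOX core match, and no GC box match. Its GC content was 50.8%, against 61.2% for BCAN and 60.8% for NCAN, with a median of 51.2% over all windows. Among all 33469 windows of the same length, 30.5% held the GC box, 12.9% the TATA box, 34.0% the CCAAT box and 10.3% the SOX core. A window was found for 9 of the 10 members, not for PTPRZ1, and TNR was the other one of these with a SOX core match. A match of letters is a description of the window and says nothing on whether a factor binds there.

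Brevican, the product of BCAN, is a lectican of the nervous system, made by astrocytes and the oligodendrocyte lineage. The larger BCAN entry had 212 FPKM in No-SCI against 82.1 FPKM in SCI. It was 2.59-fold lower after SCI, a log2 ratio of −1.37, and moved from percentile 92.5 of all genes to percentile 82.4. The smaller entry had 70.0 FPKM in No-SCI against 39.4 FPKM in SCI, a log2 ratio of −0.83, which stays short of 2-fold. Both entries were lower after SCI, and their sum, 282 FPKM in No-SCI against 121 FPKM in SCI, gave a log2 ratio of −1.22. The file does not say what separates the entries. Only the larger one is used for BCAN elsewhere, unless stated.

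Neurocan (NCAN), a lectican of astrocytes and neurons that is known to be made in larger amounts around central nervous system lesions, was much scarcer than BCAN. Its value was 6.85 FPKM in No-SCI against 2.74 FPKM in SCI. The SCI value was 0.401 of the No-SCI value, a log2 ratio of −1.32, close to that of the larger BCAN entry in the values as deposited. In these values BCAN exceeded NCAN 31.0-fold in No-SCI and 29.9-fold after SCI. At the low level of NCAN this closeness depends on the handling of small values. With a pseudocount of 1 NCAN had −1.07 and BCAN −1.36. With 1 subtracted from every value, chosen after seeing the data, NCAN had −1.75 and BCAN −1.38. Versican (VCAN), which is made by oligodendrocyte precursors and by connective tissue, had 6.02 FPKM in No-SCI against 4.97 FPKM in SCI. Its log2 ratio of −0.28 was the one nearest 0 of the 3 listed lecticans, and 40.7% of all genes had a lower ratio. In No-SCI, NCAN was 1.14-fold above VCAN, and after SCI the order was the other way round.

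Among the membrane proteoglycans, PTPRZ1 encodes a receptor phosphatase whose shed ectodomain is phosphacan, a partner of tenascins and of cell adhesion molecules. Its value was 19.5 FPKM in No-SCI against 5.52 FPKM in SCI. It was 3.53-fold lower after SCI, the largest difference of any member, and 1.94% of all genes had a lower log2 ratio. It is also the one member whose No-SCI value lay above the median of all genes, 17.2 FPKM, and whose SCI value lay below it, at 15.6 FPKM. CSPG4, the NG2 proteoglycan of oligodendrocyte precursors and pericytes, had 1.63 FPKM in No-SCI against 1.60 FPKM in SCI. Both are close to the smallest value deposited for any gene, which is 1, and a ratio there carries little information. CSPG4 was the scarcest listed member in both groups.

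Tenascin-R (TNR), made by oligodendrocytes and some neurons, crosslinks lecticans in the net. Its value was 10.9 FPKM in No-SCI against 6.56 FPKM in SCI, a log2 ratio of −0.74. Tenascin-C (TNC), the family member known from development and wounds, had 10.4 FPKM in No-SCI against 9.80 FPKM in SCI, a log2 ratio of −0.085. Neither reached 2-fold. TNR and TNC lay within 1.05-fold of each other in No-SCI, and after SCI the level of TNR was 0.669 of that of TNC. The log2 ratios of TNC and CSPG4 turn positive when the median of all genes is centred at 0, to 0.032 and 0.092, so their direction depends on the scaling.

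HAPLN2, also known as Bral1, is a link protein of the nodal matrix that oligodendrocytes make. Its value was 36.6 FPKM in No-SCI against 62.5 FPKM in SCI, 1.70-fold higher, a log2 ratio of 0.77 that did not reach 2-fold and that 88.5% of all genes fell below. It was the only listed member with a higher value after SCI in the values as deposited. The level of HAPLN2 was 0.173 of that of BCAN in No-SCI and 0.761 after SCI, and with both BCAN entries summed it was 0.130 in No-SCI and 0.514 after SCI. Relative to TNR it was 3.35-fold in No-SCI and 9.53-fold after SCI. In the GRCr8 gene order, each of the 4 lectican genes directly neighbours a link protein gene, with 0 protein-coding genes between them: BCAN and HAPLN2, NCAN and HAPLN4, VCAN and HAPLN1, ACAN and HAPLN3. HAPLN4, whose protein binds lecticans in the nets of fast-firing neurons, had 2.93 FPKM in No-SCI against 1.98 FPKM in SCI, a log2 ratio of −0.57 beside the −1.32 of NCAN. BCAN and HAPLN2 are thus a neighbouring pair with log2 ratios of opposite sign, and NCAN and HAPLN4 a pair with the same sign.

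In No-SCI the order of levels was BCAN, HAPLN2, PTPRZ1, TNR, TNC, NCAN, VCAN and CSPG4, and after SCI it was BCAN, HAPLN2, TNC, TNR, PTPRZ1, VCAN, NCAN and CSPG4. BCAN stood 5.79-fold above HAPLN2 in No-SCI and 1.31-fold above it after SCI. With no spread between animals, it cannot be said which neighbours in this order differ. Of the 9 rows, 7 carry a value of more than 6 significant digits, the number a single Cuffdiff estimate has, as do 58.6% of all rows. Where such a value is a sum over several estimates, the level of one gene relative to another depends on how many were summed. The rows of NCAN and HAPLN2 have no such value.

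**Figure D2:**
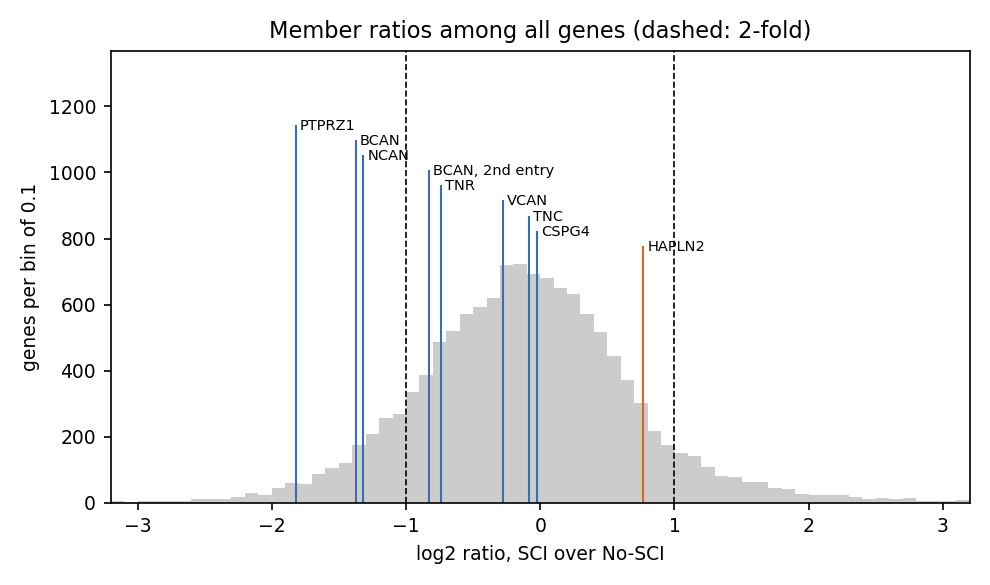
Log2 ratio of SCI over No-SCI for all genes as a grey histogram (genes per bin), with 1 vertical line for each listed member row and dashed lines at 2-fold; line heights only separate the names, and the axis is cut at the sides. PTPRZ1, the larger BCAN entry and NCAN lie beyond the dashed line on the left, and the smaller BCAN entry, at −0.83, is short of it. HAPLN2 lies at 0.77, short of the one on the right.

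The genes that build, bind and cut this matrix were drawn up as 10 lists with 100 genes, of which 76 are listed. Over all of them 11 (14.5%) were at least 2-fold lower and 6 (7.89%) at least 2-fold higher after SCI, beside 12.1% and 7.93% of all genes, and their median log2 ratio was −0.29. After median centring these counts were 10 lower, without CSGALNACT1, and 7 higher, with TIMP2. With a pseudocount of 1 added to every value they were 9 lower, without CSPG5 and TGFBR1, and 5 higher, without CEMIP. The lists that follow are described by these counts and have no test of their own.

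Chain building was spread around the median of all genes. Of the 12 enzymes that make the linker and lengthen the chain, 10 are listed, with a median log2 ratio of −0.15, and 1, CSGALNACT1, which adds the first sugar of the chain, was at least 2-fold lower. CSGALNACT1 had 46.7 FPKM in No-SCI against 22.6 FPKM in SCI, a log2 ratio of −1.05 that is short of 2-fold after median centring, at −0.93, and at the same upper quartile, at −0.94. The most abundant of these enzymes, B3GAT3, had 177 and 124 FPKM, and FAM20B, the kinase that primes the linker, 60.4 and 47.6 FPKM. Of 14 genes of sulfation and epimerisation, 11 are listed, and their median was −0.52, or 0.34 over those with a mean of at least 5 FPKM. DSE, the epimerase that turns chondroitin into dermatan sulfate, was the one past 2-fold, with 7.75 FPKM in No-SCI against 16.8 FPKM in SCI. With 1 subtracted from every value, chosen after seeing the data, 3 of the list were at least 2-fold lower and 2 higher. PAPSS1, which makes the sulfate donor, had 78.7 and 53.3 FPKM, and the sulfotransferase CHST12 had 15.9 and 21.3 FPKM.

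Among 10 listed genes of chain and hyaluronan breakdown, of 12, the hyaluronidases HYAL1 and HYAL2 stood on opposite sides. HYAL3 was short of 2-fold, with 6.90 FPKM in No-SCI against 4.60 FPKM in SCI, a log2 ratio of −0.58. HYAL1, a lysosomal hyaluronidase, had 8.69 FPKM in No-SCI against 3.06 FPKM in SCI, a log2 ratio of −1.51. HYAL2, anchored at the cell surface, had 5.10 and 12.4 FPKM, a log2 ratio of 1.28, and CEMIP, which is needed to break down hyaluronan outside cells, 1.98 and 4.14 FPKM. The most abundant of this list, the lysosomal enzymes HEXA, ARSB and IDUA, had log2 ratios of 0.25, −0.34 and −0.21. Of 10 genes of hyaluronan synthesis and binding 8 are listed. CD44, the main hyaluronan receptor, was the most abundant with 309 FPKM in No-SCI against 184 FPKM in SCI. UGP2 and UGDH, which make the sugar nucleotide for the chains, had log2 ratios of −0.65 and 0.62. TNFAIP6, which loads heavy chains onto hyaluronan, was 2.75-fold lower, and LYVE1, a hyaluronan receptor of lymphatic vessels and some macrophages, 3.65-fold higher after SCI. The synthases HAS1 and HAS2 had log2 ratios of −0.49 and −0.44 at levels below 3 FPKM.

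Of the 4 receptors through which chondroitin sulfate acts on axons 3 are listed, and none reached 2-fold. PTPRS (receptor phosphatase sigma) had 30.0 FPKM in No-SCI against 16.2 FPKM in SCI, PTPRF (LAR) 59.5 and 40.6 FPKM, and RTN4RL1 2.46 and 1.89 FPKM. The partners of tenascins and phosphacan included lower values of larger size. Of 11 such genes 7 are listed, with a median log2 ratio of −0.94, and 3 were at least 2-fold lower. Over those with a mean of at least 5 FPKM, which leaves out L1CAM, the median was −0.61 and 2 were at least 2-fold lower. CNTN1 (contactin), an axonal ligand of phosphacan and of TNR, had 202 FPKM in No-SCI against 48.3 FPKM in SCI, a log2 ratio of −2.06. The adhesion molecules NCAM1, at 202 and 82.6 FPKM, and L1CAM, at 5.69 and 2.14 FPKM, had log2 ratios of −1.29 and −1.41. NRCAM, an adhesion molecule of nodes, had 894 and 466 FPKM, a log2 ratio of −0.94, and PTN (pleiotrophin), a ligand of PTPRZ1, 285 and 233 FPKM. MDK (midkine), also a ligand of PTPRZ1, was the one listed gene of this list with a higher value, 63.5 FPKM in No-SCI against 96.1 FPKM in SCI, a log2 ratio of 0.60.

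Of 17 matrix proteases and inhibitors 12 are listed, 2 of them at least 2-fold lower and 2 at least 2-fold higher. The inhibitor TIMP1 had 208 FPKM in No-SCI against 780 FPKM in SCI, whereas TIMP4 had 47.8 and 19.4 FPKM, so the ratio of TIMP1 to TIMP4 was 4.36 in No-SCI and 40.2 after SCI. TIMP3, an inhibitor of the ADAMTS proteases that cut lecticans, had 15.9 and 34.7 FPKM. MMP3 (stromelysin 1) was 5.79-fold lower after SCI, with 38.5 and 6.65 FPKM. ADAMTS4, ADAMTS5 and ADAMTS1, proteases that cut lecticans, had log2 ratios of −0.57, 0.23 and −0.22, short of 2-fold, and PLAT, tissue plasminogen activator, −0.077. Of the relatives of the members, CSPG5 (neuroglycan C), a membrane proteoglycan of neurons, had 4.49 FPKM in No-SCI against 1.99 FPKM in SCI, a log2 ratio of −1.18 that is short of 2-fold with a pseudocount of 1.

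**Figure D3:**
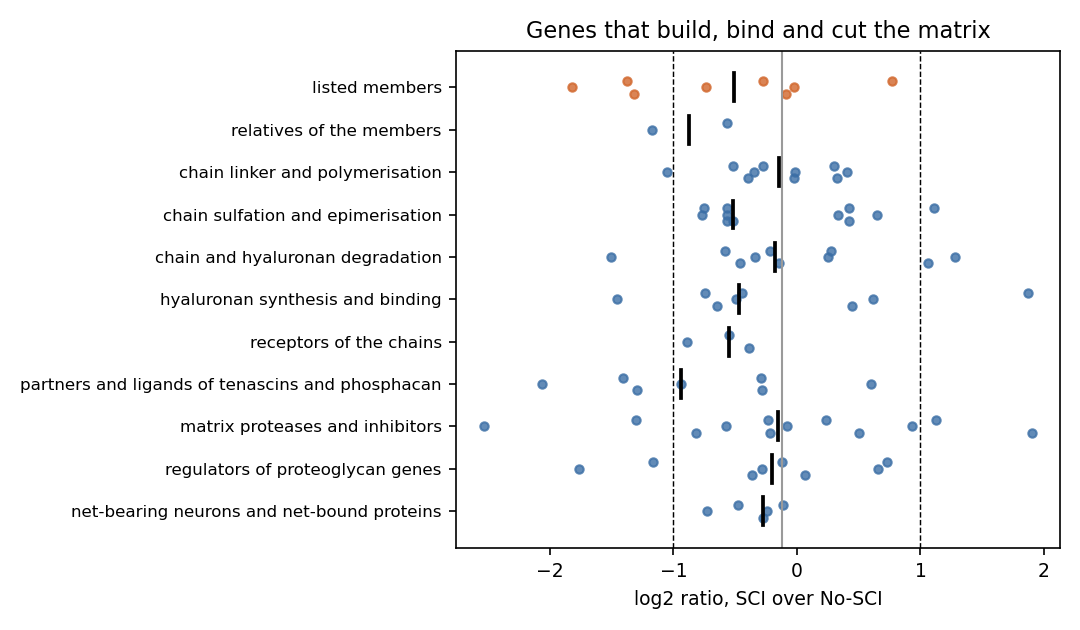
Log2 ratio of SCI over No-SCI for each listed gene of the 10 lists and for the listed members in the top line; each point is 1 gene, the black bar is the median of the list, the grey line the median of all genes (−0.12) and the dashed lines 2-fold. The partners of tenascins and phosphacan have a median of −0.94 and a lowest point at −2.06, and the protease list has points past 2-fold on both sides.

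The regulators gave a mixed picture. SOX9, a transcription factor that drives genes of astrocytes and of proteoglycans, had 33.1 FPKM in No-SCI against 9.77 FPKM in SCI, 3.39-fold lower. TGFBR1, a receptor chain for TGF-beta, which raises proteoglycan synthesis in astrocytes, had 4.96 and 2.21 FPKM, a difference that is also short of 2-fold with a pseudocount of 1. The other receptor chain, TGFBR2, and the ligand TGFB1 had higher values, with log2 ratios of 0.66 and 0.73. The most abundant regulators, TGFB3 and STAT3, had log2 ratios of 0.064 and −0.36. Of 7 genes of net-bearing neurons and net-bound proteins 5 are listed, with a median log2 ratio of −0.28 and none past 2-fold. PVALB (parvalbumin), which marks many net-bearing neurons, had 14.8 FPKM in No-SCI against 8.95 FPKM in SCI. It was the only gene of this list left by a filter at a mean of 5 FPKM, with a log2 ratio of −0.72. With 1 subtracted from every value, chosen after seeing the data, the median of the list was also −0.72.

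Marker lists of the cells that make or surround this matrix moved in several directions between the same groups. Of the 7 listed astrocyte markers, of 12, 5 were at least 2-fold lower after SCI. The 7 had a median log2 ratio of −1.31 and ran from −1.90 to 0.23. Among the members, BCAN, NCAN and PTPRZ1 had −1.37, −1.32 and −1.82, and the smaller BCAN entry −0.83. The other listed members ran from −0.74 for TNR to 0.77 for HAPLN2, with −0.085 for TNC. The summed level of the astrocyte list was 14057 FPKM in No-SCI against 8961 FPKM in SCI, nearly all of it GLUL and NDRG2, and without GLUL the other 6 summed to 8198 FPKM in No-SCI against 3337 FPKM in SCI. The defining markers GFAP, AQP4, SLC1A3, S100B and ALDOC are not listed. GJA1, a connexin of astrocyte gap junctions, and FGFR3 were 2.67-fold and 3.73-fold lower, while GLUL (glutamine synthetase) and GJB6, another astrocyte connexin, had log2 ratios of −0.059 and 0.23. Of 12 oligodendrocyte markers 11 are listed, all but MBP, with a median of −1.62, 7 of them at least 2-fold lower, and a summed level of 52646 FPKM in No-SCI against 30324 FPKM in SCI. MOBP alone made up most of both sums, and the other 10 markers summed to 8445 FPKM in No-SCI against 2676 FPKM in SCI. The listed oligodendrocyte markers ran from −2.65 for OPALIN to 0.42 for ASPA, the 1 with a higher value, with −2.36 for UGT8 and −0.68 for MOBP. HAPLN2, a member that is not in this list, had 0.77.

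Of 10 markers of oligodendrocyte precursors 8 are listed, 3 of them at least 2-fold lower, with a median of −0.57 and a summed level of 272 FPKM in No-SCI against 190.4 FPKM in SCI. GPR17, NKX2-2 and SOX10 had log2 ratios of −2.32, −2.00 and −1.35 and SOX6, the most abundant, −0.69, while PDGFRA and OLIG2 had log2 ratios of 0.70 and 0.059, beside −0.025 for CSPG4 and −0.28 for VCAN. The neuronal list, with 9 of 12 listed, had a median of −0.60 and 2 genes at least 2-fold lower, and SNAP25, NEFM and CHAT are not listed. Its summed level was 161 FPKM in No-SCI against 79.3 FPKM in SCI. Without NEFL the other 8 summed to 83.2 FPKM in No-SCI against 53.3 FPKM in SCI. All 10 meningeal fibroblast markers are listed and had higher values after SCI, 9 of them at least 2-fold, with a summed level of 75.2 FPKM in No-SCI against 356 FPKM in SCI. DCN, the gene of decorin, a small proteoglycan of connective tissue, was 10.4-fold higher. All 5 listed Schwann cell markers, of 6, were also higher, from a sum of 62.7 to 130 FPKM. PMP22 made up most of both sums, and the other 4 summed to 6.11 FPKM in No-SCI against 44.5 FPKM in SCI. All 8 skeletal muscle markers were lower, from 424 to 43.9 FPKM. All 12 microglia and macrophage markers are listed, with a median of −0.12 and a sum of 1140 and 1588 FPKM. Most of the difference between these sums was LYZ2 (lysozyme), with 201 FPKM in No-SCI against 611 FPKM in SCI. CD68, a lysosomal protein of phagocytes, had a log2 ratio of 1.43, whereas CSF1R and CX3CR1, receptors of resident microglia, had −1.17 and −1.25. P2RY12, another such receptor, was just past 2-fold lower and short of it after median centring. The 6 mural cell markers had a median of −0.23 and a sum of 429 and 550 FPKM, of which TAGLN made up 383 and 517 FPKM, and the other 5 summed to 46.2 FPKM in No-SCI against 32.2 FPKM in SCI. ABCC9 was the 1 mural marker at least 2-fold lower, with 7.07 FPKM in No-SCI against 2.78 FPKM in SCI, and none was at least 2-fold higher. Of the endothelial markers, 6 of 8 are listed, with a median of 0.23 and a sum of 35.9 and 44.5 FPKM, with PECAM1 and TEK not listed. CDH5 was the one endothelial marker past 2-fold, with 3.85 FPKM in No-SCI against 11.7 FPKM in SCI. Of the 6 listed, 2 had lower values after SCI. After median centring, 1 gene fewer was at least 2-fold lower in the astrocyte list (4), the oligodendrocyte list (6) and the microglia and macrophage list (2). The part of these cell types in the values of the members was not tested.

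**Figure D4:**
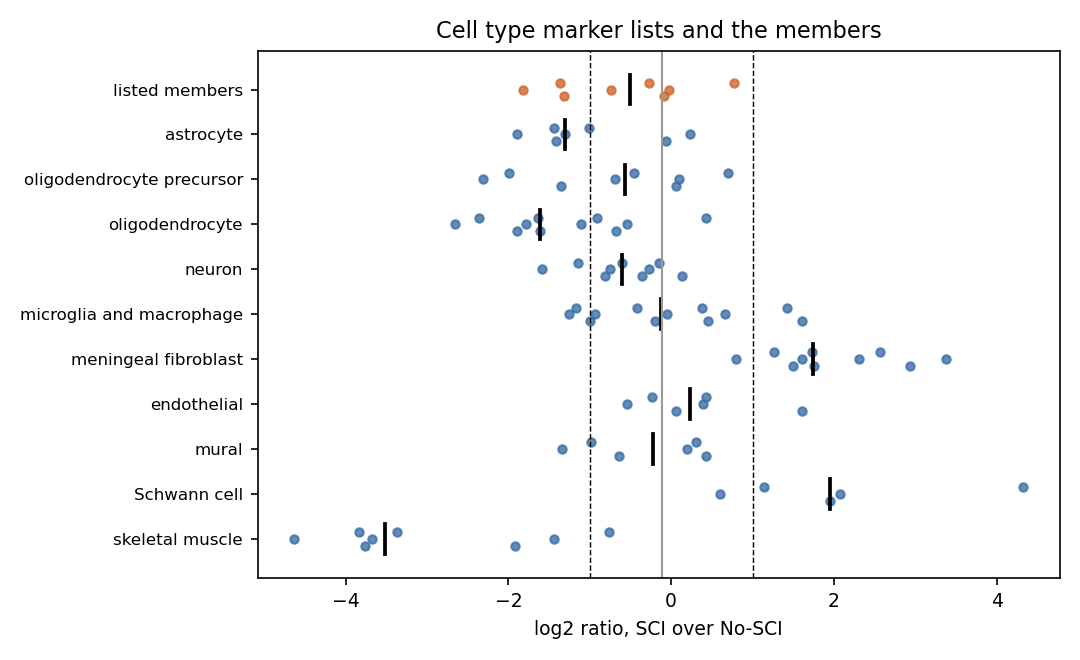
Log2 ratio of SCI over No-SCI for each listed marker of 10 cell types and for the listed members in the top line; points, black bars, grey line and dashed lines are as for the matrix gene lists. The astrocyte and oligodendrocyte medians lie at −1.31 and −1.62, and the meningeal fibroblast and Schwann cell medians at 1.75 and 1.95.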

How the data were processed

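Bulk RNA of the supernatant was measured in 3 labelled libraries. The authors depleted ribosomal RNA, made stranded libraries, cut every library to the read number of the smallest, aligned to rn6 with STAR 2.5.4b and ran Cuffdiff 1.3.0 with upper quartile normalization, as the study methods and the submitters' processing notes say. The deposited FPKM values are the authors' value per group. No counts are given; the methods state a read number per sample, but the fragments behind a value and the replicate error cannot be computed from the table, so no interval is printed. The authors' fold changes, p-values, q-values and significance calls in the same table compare SCI with No-SCI and were not used. There were 0 measurement columns without a group.

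The log2 ratio was computed without a pseudocount over all 12758 symbols, and a repeated symbol was represented by its more abundant entry. The lowest deposited value is 1, held by 18 No-SCI and 37 SCI values. Whether it is a floor or an offset added to every value is not stated. An added offset would shrink the ratios of scarce genes, which is why 1 was also subtracted from every value. All listed members were named, and the other named genes come from those of each list past 2-fold or among its 3 most abundant. Outside the rule, HAS1, HAS2, HYAL3, ADAMTS1, ADAMTS4, ADAMTS5, ASPA, PDGFRA, OLIG2, GJB6, MDK, TIMP2, TGFBR2 and TGFB1 were chosen after their values were seen. The same holds for the 3 sequences and 4 motifs. Members and lists were chosen with earlier results of these data known. All 10 members matched a GRCr8 symbol, used for names and gene order. Alternatives were pseudocounts, scalings, fold sizes, a filter at a mean of 5 FPKM and summed entries; calls were tested on simulated data. Python 3.11.15, numpy 2.4.6, pandas 2.3.3 and matplotlib 3.10.9 were used.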

Additional observations from a re-analysis of the deposited data

How the results depend on the processing

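No paired analysis was possible because the deposited table holds 1 value per group and the labelled replicate numbers are not shared; leaving out single libraries was not run for the same reason. BCAN, NCAN and PTPRZ1 stayed at least 2-fold lower under both pseudocounts, the 3 scalings, summed entries and, chosen after seeing the data, with 1 subtracted from every value. With a mean of at least 5 FPKM, which removes NCAN and CSPG4, 2 of 6 members were, beside 12.1% of the 10140 genes left. The smaller BCAN entry, chosen after seeing the data, gave −0.83. The count lower was 4 at 1.3-fold and 1.5-fold (adding TNR) and 1 at 3-fold (PTPRZ1), beside 35.7%, 26.3% and 3.27% of all genes, and the count higher was 1 at 1.3-fold and 1.5-fold (HAPLN2), beside 24.6% and 16.9%. The median log2 ratio of the members, −0.51, was −0.45 with a pseudocount of 1, −0.50 with 0.1, −0.39 after median centring, −0.40 at the same upper quartile, −0.46 at the same total and −0.59 with 1 subtracted, and their mean was −0.61. CSPG4 turned to 0.092, 0.078 and 0.020 under these 3 scalings, and TNC to 0.032 and 0.018 under the first 2. The list of sulfation and epimerisation turned from −0.52 to 0.34 with a mean of at least 5 FPKM, since fewer genes were included. Median centring moves all log2 ratios up by 0.12.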

Other observations

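The authors' table lists 13 symbols more than 1 time, and BCAN is the only proteoglycan or net gene followed here among them. The log2 ratios of the 2 BCAN entries differed by 0.54. Over the 13 symbols the median difference between entries was 0.45, and 4 had a larger one than BCAN. In 1 of them the entries had opposite signs.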
